A study of Mus musculus with 25 samples.

Results

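Fatty acids reach the contracting soleus, a postural leg muscle with many slow oxidative fibers, by several steps, and 9 genes of these steps are described here in WT and muscle-specific *Dnmt3a* knockout (mD3AKO) mice at rest and after exercise. The genes were chosen by name: *Lpl*, *Angptl4*, *Cd36*, *Fabp3*, *Cpt1b*, *Ucp2*, *Ucp3*, *Plin2* and *Ppard*, all 9 of which were found by gene identifier among the 52636 genes of the count table and passed the filter on low counts. All mice were 12 weeks old, male and female, on a C57BL/6 background, and both genotypes carried floxed *Dnmt3a* alleles. The mD3AKO mice also carried Cre recombinase under control of the promoter of muscle creatine kinase, active in skeletal muscle and heart. The RNA came from the muscle as a whole, in which fibroblasts, vessels, blood cells and satellite cells were not separated from the fibers. The 4 groups were 5 WT mice at rest (3 males and 2 females), 7 WT mice killed 60 minutes after a treadmill bout of 30 minutes (3 males and 4 females), 7 mD3AKO mice at rest (4 males and 3 females) and 6 mD3AKO mice after the same bout (3 males and 3 females). *Dnmt3a* ranged from 93.4 to 130.5 CPM (counts scaled to the library total) in WT and from 34.6 to 53.9 CPM in mD3AKO mice.

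Muscle takes fatty acids from circulating lipoproteins and from albumin. Lipoprotein lipase, from *Lpl*, releases them at the capillary wall, ANGPTL4 inhibits that enzyme, CD36 carries them across cell membranes, and FABP3 binds them in the cytosol. CPT1B, the muscle form of carnitine palmitoyltransferase 1, commits them to oxidation in mitochondria, while perilipin 2, from *Plin2*, coats the droplets in which the surplus is stored. UCP2 and UCP3 are carriers of the inner mitochondrial membrane related to the uncoupling protein of brown fat, and PPARδ, from *Ppard*, is a nuclear receptor that binds fatty acids and regulates many genes of this pathway.

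*Ucp3* and *Ucp2* are neighbours on chromosome 7 (mm10, forward strand), with 6904 bases from the end of *Ucp3* (ENSMUSG00000032942.14, 100472990 to 100486432) to the start of *Ucp2* (ENSMUSG00000033685.13, 100493337 to 100502020). Their promoters are shown because only *Ucp2* of this pair passed the test for exercise below. Each line gives, 5′ to 3′ on the forward strand, the 250 bases before the start site in RefSeq (GRCm38.p6), at chr7:100493108-100493357 for *Ucp2* and chr7:100472741-100472990 for *Ucp3*, with capitals marking the nuclear receptor motif AGGTCA on either strand.
Ucp2: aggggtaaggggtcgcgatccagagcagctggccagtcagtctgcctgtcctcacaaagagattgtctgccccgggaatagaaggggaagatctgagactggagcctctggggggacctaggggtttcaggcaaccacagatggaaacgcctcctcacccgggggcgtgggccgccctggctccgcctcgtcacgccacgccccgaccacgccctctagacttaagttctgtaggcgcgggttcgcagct
Ucp3: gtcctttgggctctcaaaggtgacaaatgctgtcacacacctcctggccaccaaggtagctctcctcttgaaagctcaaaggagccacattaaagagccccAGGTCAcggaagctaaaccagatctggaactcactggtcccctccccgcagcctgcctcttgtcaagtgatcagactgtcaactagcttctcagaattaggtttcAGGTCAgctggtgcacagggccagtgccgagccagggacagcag

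The windows searched ran to 50 bases past the start, 300 bases in all, and a window was in the table for 6 of the 9 genes (*Plin2*, *Fabp3*, *Cd36*, *Ucp3*, *Ucp2* and *Ppard*). *Ucp3* held AGGTCA at positions −149 and −44 from its start. *Cd36* held it at −228 and *Plin2* at −218, both on the opposite strand, and 16.3% of 32851 RefSeq promoters held it at least once on either strand. The full PPAR motif, AGGTCA repeated after 1 spacer base, which contains the shorter motif, was present in 0.0396% of promoters and in none of the 6 windows. The FoxO motif GTAAACA (3.65%) and that of the glucocorticoid receptor, AGAACA and TGTTCT with 3 bases between them (0.00913%), matched none of the 6 either. All were searched on both strands. The E-box CACGTG (7.15% of promoters) matched that of *Plin2* across its start. These are matches of letters, not sites shown to be bound. The *Ucp2* window was 64.3% G and C with 21 CpG dinucleotides, and that of *Ucp3* 55% with 5, beside medians of 52.7% and 7 over all promoters. *Cd36* and *Fabp3*, shown because their levels varied together between mice (below), differed in base composition, at 43% G and C with 3 CpG dinucleotides and 65% with 22. The *Cd36* window lies inside the gene as counted, which spans 17781690 to 17888801 on the reverse strand, and not at its upstream end.
Cd36, reverse strand, chr5:17835897-17836146: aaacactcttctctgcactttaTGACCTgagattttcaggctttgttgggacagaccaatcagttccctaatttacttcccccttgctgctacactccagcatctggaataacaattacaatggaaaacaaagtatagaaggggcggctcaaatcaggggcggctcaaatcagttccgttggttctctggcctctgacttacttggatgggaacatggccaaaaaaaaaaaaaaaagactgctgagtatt
Fabp3, forward strand, chr4:130308488-130308737: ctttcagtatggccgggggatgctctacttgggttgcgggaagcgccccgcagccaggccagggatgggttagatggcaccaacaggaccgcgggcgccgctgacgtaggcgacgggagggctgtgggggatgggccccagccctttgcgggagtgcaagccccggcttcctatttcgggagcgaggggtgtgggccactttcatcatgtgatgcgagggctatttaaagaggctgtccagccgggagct

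The libraries held between 22671457 and 37431801 counts (median 32189360), so that 1 CPM rested on about 32.2 reads at the median total, before the TMM factor of the library. In mouse 15, a male mD3AKO mouse at rest, ribosomal RNA took 39.5% of the counts, against 7.76% to 13.0% in the other mice. Its TMM factor was 0.631, so that 1 CPM rested on fewer reads there. Relative to exon length, *Fabp3* had the highest level of the 9 genes, at 1094 ± 224 RPKM (CPM per kilobase of exon, SD, n = 25). It was followed by *Cd36* at 299 ± 52.4, *Lpl* at 219.6 ± 31.4, *Ucp3* at 32.1 ± 9.71, *Plin2* at 15.1 ± 1.65, *Cpt1b* at 9.43 ± 1.25, *Angptl4* at 3.42 ± 2.70, *Ppard* at 2.33 ± 0.338 and *Ucp2* at 2.19 ± 0.482 RPKM. The fatty acid binding protein thus lay 3.66-fold above the next gene, and *Ppard* and *Ucp2*, with means 1.07-fold apart, did not differ beyond their spread. This order depends on the annotated exon length, 823 bases for *Fabp3*, 3590 for *Cd36* and 10478 for *Lpl*. By CPM the group means of *Lpl* lay above those of *Cd36*, and those of *Cd36* above those of *Fabp3* (below). The level of *Cpt1b* is uncertain, because 2744 of its 3372 exon bases are shared with *Chkb*, a choline kinase gene on the same strand, and reads there can be lost or assigned to either. *Ucp2* shares 305 exon bases with *Dnajb13* on the opposite strand, which had a median of only 15 counts. Between mice, *Plin2* varied least, with a coefficient of variation of 10.9%, and *Angptl4* most, at 79.0%, or 49.4% without mouse 1 (below).

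**Figure D1:**
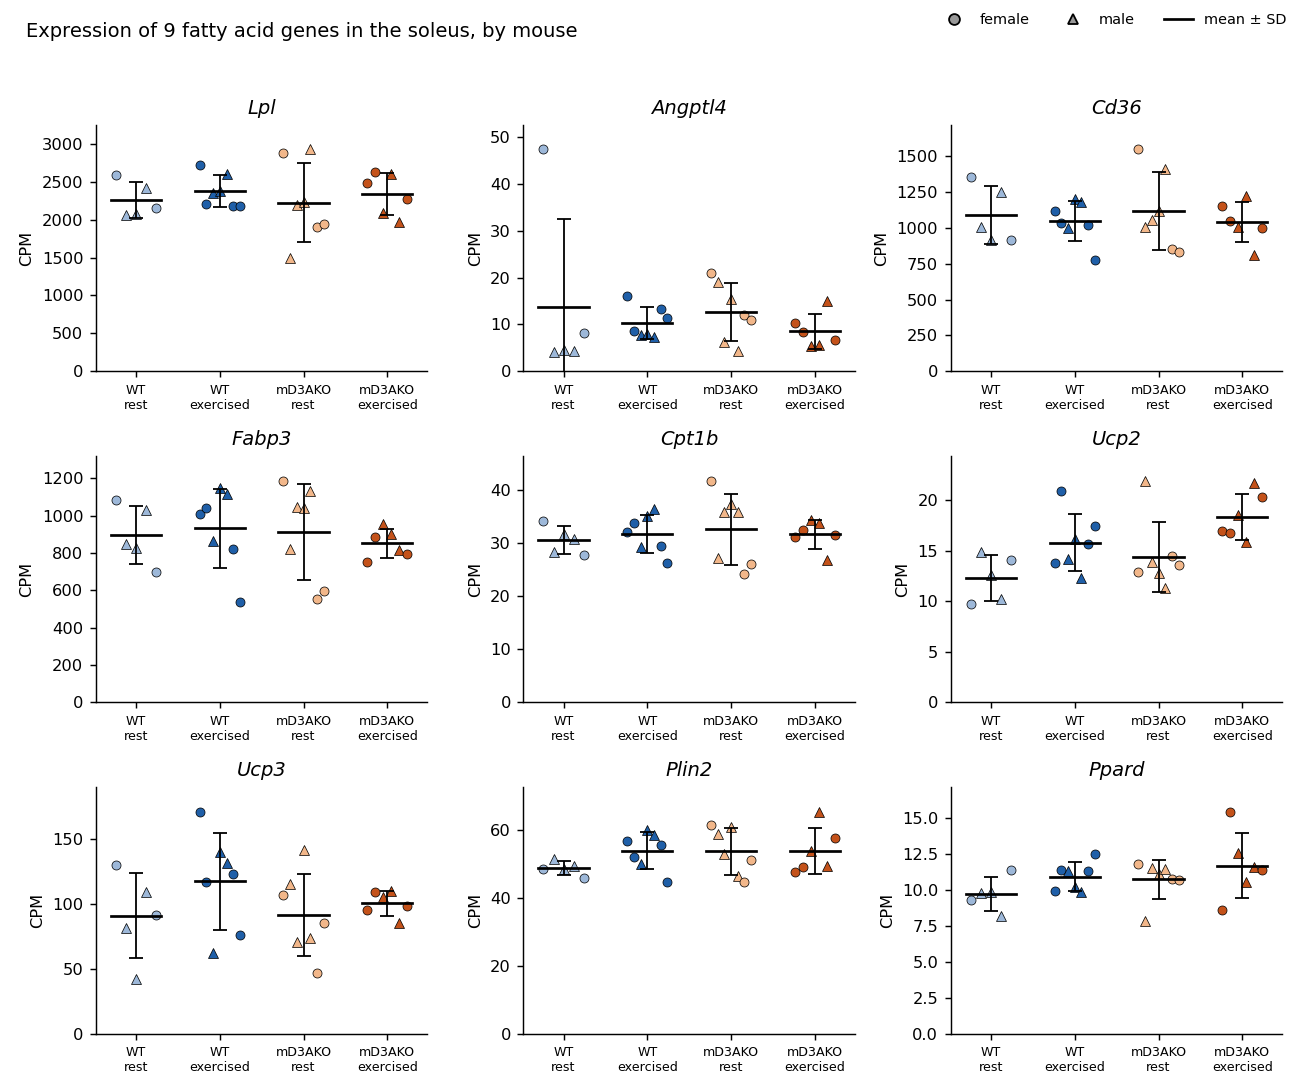
CPM (linear axes from 0) of the 9 genes in each of the 25 mice, by group, with circles for females and triangles for males, in order of mouse number within a group; lines and bars are means and SD, the lower bar of *Angptl4* in rested WT mice ending at the axis. The exercised mice lie higher for *Ucp2* with overlap, and 1 rested WT female reaches 47.4 CPM of *Angptl4*.

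Exercise raised *Ucp2*, and none of the other 8 genes passed the test, so that 1 of 9 was called at an adjusted p under 0.05 in edgeR's quasi-likelihood test. Over all 16340 tested genes the share called was 10.4%, so the count for these genes is that of the background. *Ucp2* was at 9.76, 10.2, 12.6, 14.1 and 14.9 CPM in the rested WT mice. After exercise the WT mice ranged from 12.3 to 20.9 CPM with a median of 15.6. In mD3AKO mice it ranged from 11.3 to 21.9 CPM (median 13.6) at rest and from 15.8 to 21.6 CPM (median 17.7) after exercise. The rested and exercised mice overlapped, but the exercised mD3AKO mice were all above 6 of the 7 rested ones, the exception being mouse 7, a male at 21.9 CPM. The main effect of exercise on *Ucp2*, averaged over the genotypes, was a log2 fold change of 0.35 (SE 0.10, fold 1.27 with a 95% interval of 1.11 to 1.47, adjusted p = 0.0219 from edgeR).

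The rise of *Ucp2* was of like size in the 2 genotypes, at 0.36 (SE 0.15) in WT and 0.34 (SE 0.14) in mD3AKO mice on the log2 scale, neither of which passed alone (adjusted p = 0.252 and 0.163 from edgeR). The difference of these responses was −0.016 (SE 0.20, adjusted p = 1.00), with an interval from −0.43 to 0.39 on the log2 scale. The exercised-over-rested fold of mD3AKO mice could thus be 0.745 to 1.31 times the fold of WT mice. The lower end of the log2 interval is larger in size than the rise of 0.36 in WT mice. The call for exercise was lost without mouse 14, a rested WT male at 10.2 CPM, where the log2 fold change was 0.32 (adjusted p = 0.0539 from edgeR), and it was kept without any other mouse. It was also lost in either sex alone, at 0.23 in the 13 males (adjusted p = 0.468) and 0.45 in the 12 females (adjusted p = 0.0700), and without TMM normalization, at 0.32 (adjusted p = 0.222). The exercise responses of the sexes differed by −0.22 (males minus females, SE 0.20, adjusted p = 1.00 from edgeR), and by −0.094 without mouse 7. Without mouse 20, which left mouse 1 as the only rested WT female, they differed by −0.35.

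Without mouse 7, left out here for its own *Ucp2* level, the rested mD3AKO mice had 13.2 ± 1.12 CPM of *Ucp2* (SD, n = 6) in place of 14.4 ± 3.46 CPM (SD, n = 7), and the response of mD3AKO mice was 0.47 (SE 0.12, adjusted p = 0.0147 from edgeR), a value that this choice favors and that supports no call. Mouse 7 also had the highest summed level of 10 macrophage markers (345.5 CPM, where the other groups reached at most 260.9), of 7 fibroblast markers (4487 CPM, at most 2275) and of 5 blood markers (464 CPM, at most 415), the lowest *Lpl* (1491 CPM) and the lowest *Ppard* (7.81 CPM) of all mice. *Ucp2* is expressed by many cells, macrophages among them. In bulk tissue, fewer cells of a type and less RNA per cell cannot be told apart. For the exercise effect itself, 0 of the 10 macrophage markers and 0 of the 7 fibroblast markers were called in edgeR, with 0 and 2 at an unadjusted p under 0.05, beside 21.3% of all tested genes. The 7 fibroblast markers had log2 fold changes from −0.44 to −0.10. The summed macrophage markers ranged from 149 to 206 CPM in WT mice at rest, from 104 to 253 CPM after exercise, from 97.01 to 345.5 CPM in mD3AKO mice at rest and from 74.9 to 260.9 CPM after exercise, and their part in the rise of *Ucp2* was not tested.

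*Ucp3*, the form that is most abundant in skeletal muscle, was not called, with a log2 fold change of 0.25 (adjusted p = 0.455 from edgeR), which was 0.16 without mouse 13, and a fold interval of 0.930 to 1.53. In rested WT mice it was at 42.2, 81.4, 91.4, 109 and 129.8 CPM, and after exercise it ranged from 61.8 to 171 CPM with a median of 123. The mD3AKO mice ranged from 46.9 to 141 CPM (median 85.0) at rest and from 85.2 to 109.7 CPM (median 101.6) after exercise. Each of the other groups spread over more than the whole range of the exercised mD3AKO mice, whose SD of 9.44 CPM compares with 31.8 to 37.4 CPM elsewhere. *Ucp1*, the uncoupling protein of brown fat, had at most 2 counts in any library and was not tested.

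**Figure D2:**
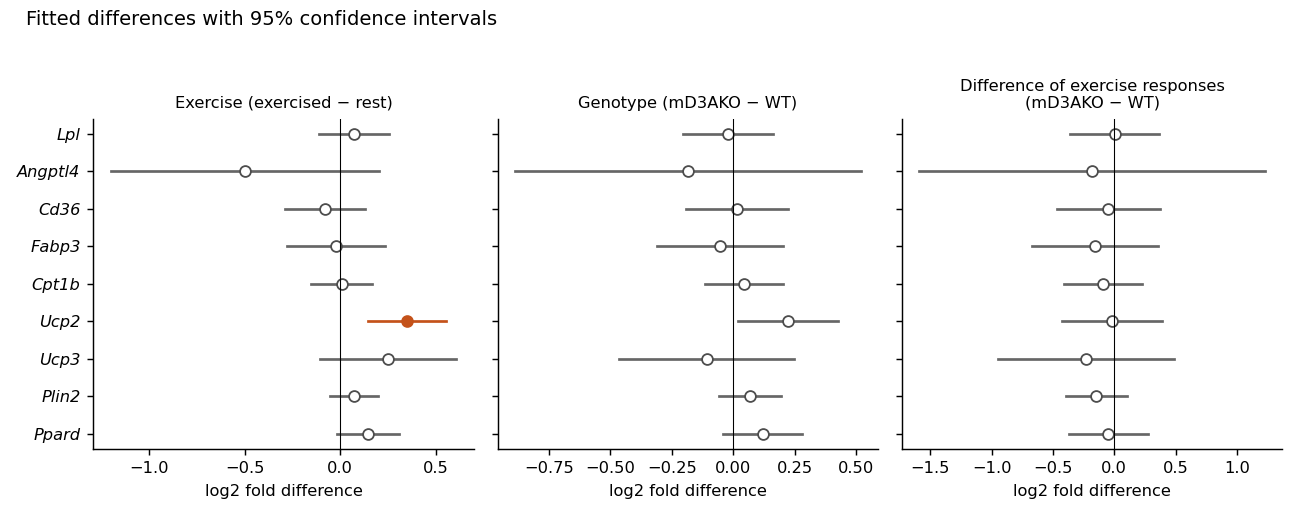
Log2 fold differences (horizontal axes, each with its own scale) of the 9 genes with 95% confidence intervals for exercise, for genotype and for the difference of the exercise responses, filled where the adjusted p is under 0.05. *Ucp2* for exercise, at 0.35, is the one filled point, and *Angptl4* has the widest intervals.

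Among the genes of lipoprotein hydrolysis, *Lpl* (ENSMUSG00000015568.16, chromosome 8) averaged 2259 ± 232 CPM in rested (SD, n = 5) and 2375 ± 214 CPM in exercised WT mice (SD, n = 7). The mD3AKO mice averaged 2222 ± 522 CPM when rested (SD, n = 7) and 2341 ± 275 CPM when exercised (SD, n = 6). All 4 means lay within the spread of their neighbours, and the fold interval for exercise was 0.928 to 1.20 (adjusted p = 0.728 from edgeR). Between mice, *Lpl* was lower where the fibroblast markers were higher (Pearson's r = −0.865, Spearman's rho = −0.812) and where the macrophage markers were higher (r = −0.778, rho = −0.733). These relations, of the log2 levels over 25 mice, had permutation p-values of r of 1e-05, the smallest that 100000 resamples can give, and adjusted p-values of 8e-05 over the 40 relations computed. Without the 2 mice farthest from the median of *Lpl*, mice 7 and 15, r was −0.761 for fibroblast and −0.699 for macrophage markers. Within the 13 males r was −0.872 for fibroblast markers, and within the females of numbers 1 to 6 and of numbers 20 to 25 it was −0.877 and −0.676 (n = 6 each). For the macrophage markers the same 3 sets gave −0.797, −0.788 and −0.52.

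*Angptl4* (ENSMUSG00000002289.15, chromosome 17, reverse strand) depended on 1 mouse. Rested WT mice were at 4.06, 4.39, 4.54, 8.11 and 47.4 CPM, the last being mouse 1, a female, whose summed adipocyte markers (373 CPM) lay within the 337 to 556.5 CPM of its group. Exercised WT mice ranged from 7.27 to 16.1 CPM (median 8.65), rested mD3AKO mice from 4.27 to 21.0 CPM (median 12.0) and exercised mD3AKO mice from 5.29 to 14.9 CPM (median 7.51). Apart from mouse 1, the rested WT mice were thus the lowest group, at 5.28 ± 1.90 CPM (SD, n = 4). With all mice the exercise effect was −0.50 on the log2 scale (SE 0.34, adjusted p = 0.451 from edgeR, fold interval 0.434 to 1.15), and without mouse 1 it was 0.19 (adjusted p = 0.728). The response of WT mice alone moved from −0.41 to 0.96 (adjusted p = 0.186), that of mD3AKO mice stayed at −0.59, and their difference moved from −0.18 to −1.55, none of which passed the test.

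*Gpihbp1*, whose product holds lipoprotein lipase on capillary endothelium, rose after exercise and was the 1 gene called for the main effect among the 9 tested of 11 in the list of lipoprotein hydrolysis, a share near the 10.4% of all tested genes. It was at 24.4, 28.2, 28.8, 31.01 and 31.6 CPM in rested WT mice, from 39.2 to 54.6 CPM (median 42.6) after exercise, from 19.6 to 31.3 CPM (median 26.1) in rested mD3AKO mice and from 41.7 to 45.3 CPM (median 42.6) after exercise. No rested mouse reached the lowest exercised one, as for 0.765% of all tested genes, and the log2 fold change was 0.68 (SE 0.068, adjusted p = 5.8e-08 from edgeR). Within mD3AKO mice a second gene of the list was called, *Lmf1*, which helps lipase folding and is named after its value was seen, at −0.25 (SE 0.067, adjusted p = 0.0245 from edgeR), with a main effect of −0.15 (adjusted p = 0.0522). The 2 of 9 called within mD3AKO mice stand beside 6.02% of all tested genes. Of the 10 endothelial markers, which include *Gpihbp1*, 2 were higher and 6 lower after exercise by edgeR, beside 5.70% and 4.69% of all tested genes, and their summed level ranged from 491 to 645 CPM at rest and from 434 to 549 CPM after exercise; the part of these cells in the value was not tested.

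For uptake and binding no main effect of exercise was called. *Cd36* (ENSMUSG00000002944.15, chromosome 5, reverse strand) averaged 1089 ± 203 CPM in rested and 1048 ± 142 CPM in exercised WT mice, and 1118 ± 270 CPM in rested and 1041 ± 141 CPM in exercised mD3AKO mice (SD). *Fabp3* (ENSMUSG00000028773.8, chromosome 4) averaged 897 ± 157, 933.5 ± 212, 912 ± 257 and 851.5 ± 76.4 CPM (SD) in the same order. Their fold intervals for exercise were 0.819 to 1.09 and 0.826 to 1.18 (adjusted p = 0.748 and 0.965 from edgeR). Of the 13 other genes of fatty acid uptake and activation, 0 were called in edgeR for the main effect, beside 10.4% of all tested genes, and 2 had an unadjusted p under 0.05, beside 21.3%. Within mD3AKO mice 1 of the 13 was called, beside 6.02%. It was *Fabp5*, another fatty acid binding protein gene, named after its value was seen, at −0.45 (SE 0.11, adjusted p = 0.0149 from edgeR), and its responses in the genotypes differed by −0.44 (SE 0.16, adjusted p = 1.00).

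Among the genes of the carnitine shuttle and of the mitochondrial enzymes downstream, 1 was called. *Cpt1b* (ENSMUSG00000078937.8, chromosome 15, reverse strand) was at 30.6 ± 2.61 and 31.8 ± 3.60 CPM (SD) in WT and at 32.6 ± 6.74 and 31.8 ± 2.71 CPM (SD) in mD3AKO mice, at rest and after exercise, with a fold interval for exercise of 0.901 to 1.12 (adjusted p = 0.978 from edgeR). Of 11 other genes of the shuttle and of malonyl-CoA control, *Cpt1c*, a form of the enzyme known from brain, was called at −0.39 (SE 0.12, adjusted p = 0.0344 from edgeR), a call lost on leaving out any 1 of 11 of the mice. It was also lost without the filter on low counts (adjusted p = 0.0695), without TMM (0.140), in males alone (−0.55, 0.0569) and in females alone (−0.27, 0.745). None of 15 enzymes of mitochondrial beta-oxidation was called in edgeR or had an unadjusted p under 0.05, and their log2 fold changes lay between −0.088 and 0.046. The median size of these was 0.018, beside 0.092 over all tested genes. The peroxisomal list had 0 of 8 called in edgeR and 1 at an unadjusted p under 0.05. Over all tested genes these shares were 10.4% and 21.3%.

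*Plin2* (ENSMUSG00000028494.12, chromosome 4, reverse strand) was at 45.9, 48.6, 48.8, 49.4 and 51.6 CPM in rested WT mice and ranged from 44.7 to 60.0 CPM (median 55.8) in exercised WT mice. It ranged from 44.7 to 61.7 CPM (median 53.0) in rested and from 47.8 to 65.5 CPM (median 51.7) in exercised mD3AKO mice. The groups overlapped, and the fold interval for exercise was 0.965 to 1.15 (adjusted p = 0.566 from edgeR). Elsewhere on the droplet, *G0s2*, an inhibitor of the lipase ATGL, fell from 28.2 to 84.1 CPM at rest to 13.1 to 24.5 CPM after exercise, with no overlap (0.306% of tested genes lay wholly below) and a log2 fold change of −1.50 (SE 0.15, adjusted p = 7.2e-08 from edgeR). *Plin4*, another droplet coat protein, rose by 0.37 (SE 0.094, adjusted p = 0.00888 from edgeR), a call lost without TMM (adjusted p = 0.0567) and in females alone, at 0.21 (adjusted p = 0.584). It was called in WT mice, at 0.50 (adjusted p = 0.0400 from edgeR), and not in mD3AKO mice, at 0.25 (adjusted p = 0.335), and the difference of the 2 responses was −0.25 (SE 0.19, adjusted p = 1.00). The 10 adipocyte markers, of which 0 were called in edgeR in either genotype (3.59% and 6.02% of all tested genes) and 1 and 0 had an unadjusted p under 0.05 (12.3% and 17.6%), had medians of 0.50 in WT mice, with 10 above 0, and of −0.18 in mD3AKO mice, with 2 above 0. Their part in the rise of *Plin4* was not tested. *G0s2* and *Plin4* were the 2 genes called for the main effect of 14 in the list of lipid droplets and lipolysis, beside 10.4% of all tested genes.

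*Ppard* (ENSMUSG00000002250.15, chromosome 17) averaged 9.69 ± 1.18 CPM in rested and 10.9 ± 0.983 CPM in exercised WT mice, and 10.7 ± 1.35 CPM in rested and 11.7 ± 2.27 CPM in exercised mD3AKO mice (SD). Its log2 fold change with exercise was 0.15 (SE 0.079, adjusted p = 0.292 from edgeR), or 0.096 without mouse 6, with a fold interval of 0.990 to 1.24. Of 11 other receptors, partners and coregulators of the family, 3 were called higher and 1 lower, beside 5.70% and 4.69% of all tested genes, and the median size of the 11 log2 fold changes was 0.060. *Ppara*, the receptor that drives fatty acid oxidation in liver and muscle, went from 25.0 to 42.9 CPM at rest to 49.7 to 93.2 CPM after exercise, without overlap, at 1.09 on the log2 scale (SE 0.089, adjusted p = 1.6e-09 from edgeR). The coactivator gene *Ppargc1a* rose by 1.10 (SE 0.12) and the corepressor gene *Nrip1* by 0.63 (SE 0.076), with adjusted p-values of 1.4e-07 and 1.4e-06 from edgeR, and *Nrip1* again without overlap of rested and exercised mice. *Ppargc1b*, a coactivator related to *Ppargc1a*, was called at −0.21 (SE 0.067, adjusted p = 0.0493 from edgeR), a call lost on leaving out any 1 of 17 of the mice. It was also lost with sex (adjusted p = 0.0510) or blocks of mouse numbers (0.0505) as a term, without ribosomal RNA genes (0.0508), without TMM (0.0896), without the filter on low counts (0.0864), in males alone (−0.29, 0.0851) and in females alone (−0.13, 0.775).

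**Figure D3:**
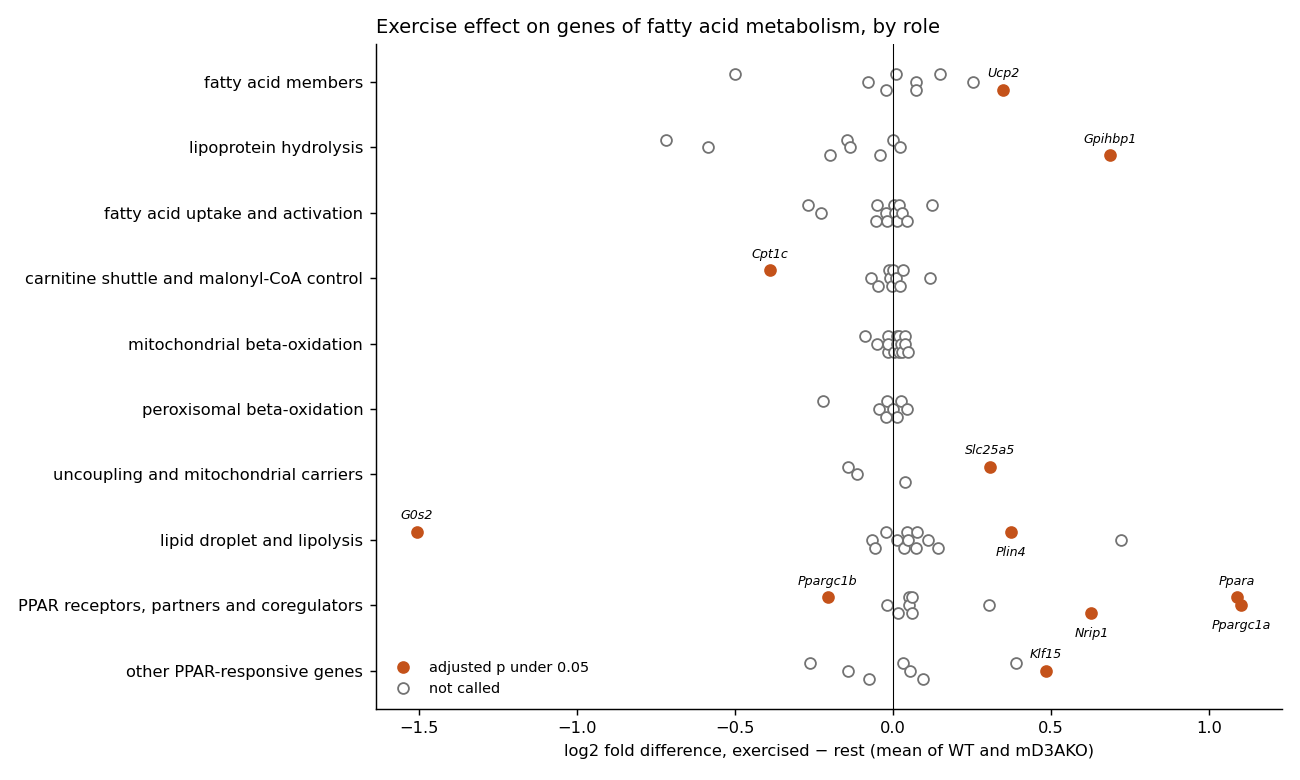
Log2 fold difference of exercised from rested mice, mean of both genotypes (horizontal axis), for the 9 genes and the 93 tested genes of 9 lists by role (rows), with filled and named points at an adjusted p under 0.05. The points of mitochondrial beta-oxidation lie between −0.088 and 0.046, while *G0s2* at −1.50 and *Ppara* and *Ppargc1a* near 1.1 lie far from 0.

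Over all 9 lists, 7 of 93 tested genes rose and 3 fell, 10.8% together beside the 10.4% of all tested genes. The other 2 that rose were *Slc25a5*, an ADP/ATP carrier, at 0.31 (SE 0.067, adjusted p = 0.00235 from edgeR), and *Klf15*, a transcription factor of lipid and amino acid use in muscle, at 0.48 (SE 0.094, adjusted p = 0.000761). In males alone neither was called, at 0.29 for *Slc25a5* (adjusted p = 0.0516 from edgeR) and 0.35 for *Klf15* (adjusted p = 0.109). Within WT mice both were called, at 0.36 for *Slc25a5* (adjusted p = 0.0316 from edgeR) and 0.61 for *Klf15* (adjusted p = 0.00824). Within mD3AKO mice neither was, at 0.25 (adjusted p = 0.117 from edgeR) and 0.36 (adjusted p = 0.111). The responses of the genotypes differed by −0.11 (SE 0.13) and −0.25 (SE 0.19), and neither difference passed the test.

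**Figure D4:**
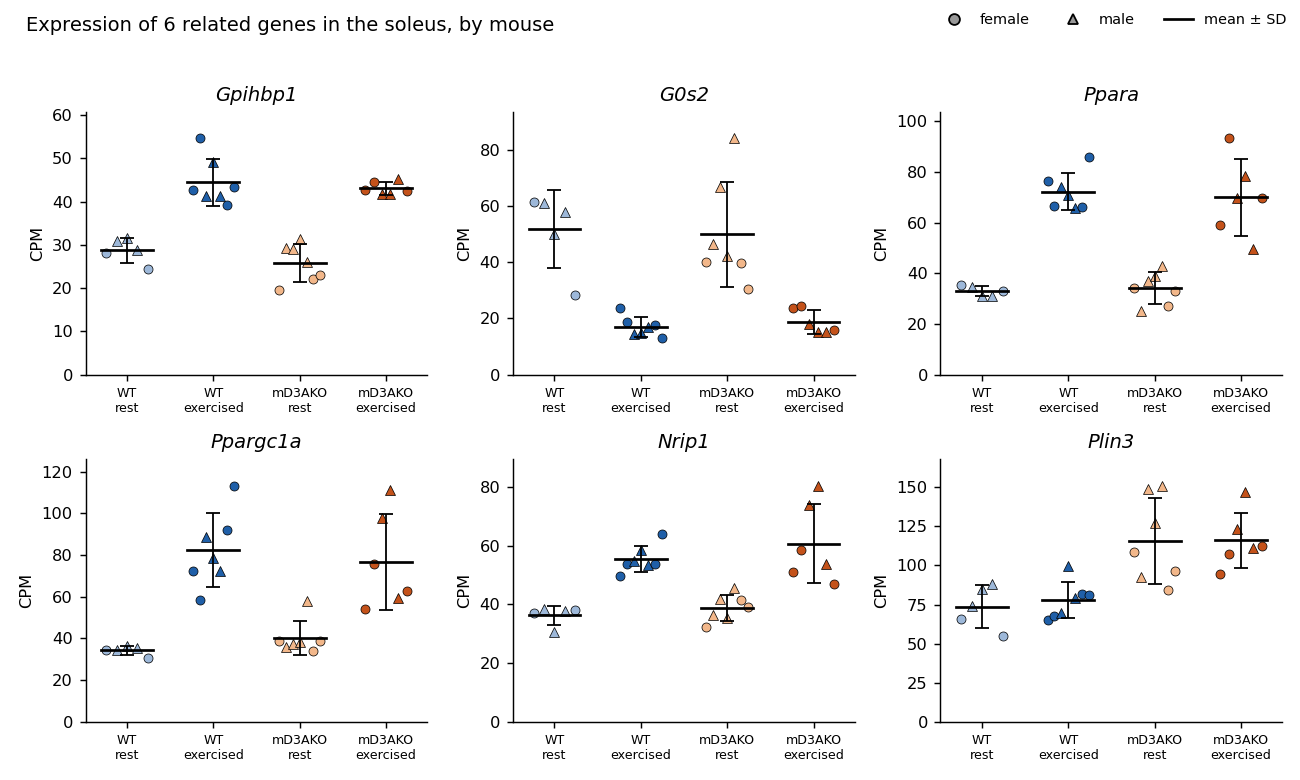
CPM (linear axes from 0) of 6 related genes in each of the 25 mice, drawn as for the 9 genes. *Gpihbp1*, *Ppara* and *Nrip1* are higher and *G0s2* lower in every exercised mouse than in any rested mouse, and *Plin3* is higher in mD3AKO mice with overlap.

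Between the genotypes, 0 of the 9 genes were called in edgeR or in DESeq2, where edgeR called 0.269% of all tested genes and DESeq2 81 of 16340. *Ucp2* alone had an unadjusted p under 0.05, beside 6.23% of all tested genes (p = 0.0339 from edgeR, adjusted p = 0.769), with means of 16.2 ± 3.50 CPM (SD, n = 13) in mD3AKO and 14.3 ± 3.07 CPM (SD, n = 12) in WT mice and a fold interval of 1.01 to 1.35. Without mouse 7, its log2 fold difference was 0.16 in place of 0.22. For the other genes, the intervals of the fold of mD3AKO over WT mice ran from 0.868 to 1.12 for *Lpl*, from 0.874 to 1.17 for *Cd36*, from 0.807 to 1.15 for *Fabp3* and from 0.923 to 1.15 for *Cpt1b*. They ran from 0.725 to 1.19 for *Ucp3*, from 0.962 to 1.15 for *Plin2*, from 0.971 to 1.22 for *Ppard* and, more widely, from 0.540 to 1.43 for *Angptl4*. Without mouse 1 the *Angptl4* difference turned from −0.18 to 0.50 on the log2 scale, with an interval of the fold of 1.01 to 1.98 (unadjusted p = 0.0424, adjusted p = 0.783 from edgeR), and *Angptl4* then stood in place of *Ucp2* as the gene with an unadjusted p under 0.05. *Dnmt3a* itself differed by −1.52 on the log2 scale (SE 0.070, adjusted p = 1.5e-13 from edgeR). The 10 adipocyte markers were all below 0 for mD3AKO minus WT mice, from −0.81 to −0.19 with a median of −0.65. Of these, 0 were called in edgeR and 2 had an unadjusted p under 0.05, beside 6.23% of all tested genes. After exercise their median was −0.96, with 0 called and 4 at an unadjusted p under 0.05, beside 5.51%. Their part in the values of the 9 genes was not tested.

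Of the 93 tested genes in the lists, 1 (1.08%) was called between the genotypes, beside 0.269% of all tested genes. *Plin3*, a perilipin found in the cytosol and on small droplets, was higher in mD3AKO mice, at 116 ± 22.4 CPM (SD, n = 13) against 76.0 ± 12.2 CPM (SD, n = 12), with ranges of 84.2 to 151 and 55.2 to 99.4 CPM that overlapped. Its log2 fold difference was 0.61 (SE 0.10, adjusted p = 0.00228 from edgeR), 0.65 at rest and 0.58 after exercise, neither of which passed alone (adjusted p = 0.145 and 0.186). The call was also lost in males alone (0.64, adjusted p = 0.0845) and in females alone (0.58, adjusted p = 0.0844). *Plin2* in the same comparison was at 0.069 (SE 0.061, adjusted p = 0.978), or 0.038 without mouse 17. The 10 adipocyte markers, given above, were all below 0 in this comparison, and their part in the perilipin values was not tested.

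A difference between the genotypes in the response to exercise was called for 0 of the 9 genes by edgeR or DESeq2, as for 0.00% of all tested genes, and 0 of the 9 had an unadjusted p under 0.05 in edgeR, where 2.47% of all tested genes did. The exercised-over-rested fold of mD3AKO mice, divided by that of WT mice, had its widest interval for *Angptl4*, at 0.332 to 2.35 times with all mice. Its narrowest interval was that of *Plin2*, at 0.759 to 1.08 times. Without mouse 1, whose *Angptl4* level was the reason to leave it out, the *Angptl4* interval was 0.173 to 0.670 times, at an unadjusted p of 0.00312 and an adjusted p of 1.00 from edgeR, and 1 of the 9 genes then had an unadjusted p under 0.05, beside 3.37% of all tested genes. Within WT and within mD3AKO mice, 0 of the 9 genes were called for exercise, where 3.59% and 6.02% of all tested genes were, and only *Ucp2* had an unadjusted p under 0.05, in both, beside 12.3% and 17.6% of all tested genes. DESeq2 called 0 of the 9 in either, beside 743 and 1211 of all 16340 tested genes. On leaving out mouse 1, *Angptl4* stood in place of *Ucp2* at that threshold in WT mice. At rest and after exercise separately, 0 of the 9 were called between the genotypes and 0 had an unadjusted p under 0.05, by edgeR, and DESeq2 called 0 as well. Of all tested genes, edgeR called 0.0918% and 0.110%, and 3.65% and 5.51% had an unadjusted p under 0.05. DESeq2 called 23 and 28 of 16340. On leaving out mouse 1, *Angptl4* at rest was 1.28 higher in mD3AKO mice on the log2 scale (SE 0.36, unadjusted p = 0.00175, adjusted p = 0.476 from edgeR), where it was −0.095 with all mice.

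Between the sexes, with a mean for each of 8 groups by sex, genotype and exercise, 1 of the 9 genes was called, where 8.15% of 17389 tested genes were. *Angptl4* was lower in males, at 8.21 ± 4.95 CPM (SD, n = 13) against 14.5 ± 11.1 CPM (SD, n = 12) in females, with overlapping ranges of 4.06 to 19.0 and 6.58 to 47.4 CPM. The log2 fold difference was −0.91 (SE 0.26, adjusted p = 0.0307 from edgeR). Without mouse 1 it was −0.47, in a fit that left mouse 20 as the only rested WT female. Without mouse 2, 3, 10, 11, 16, 17 or 18 the adjusted p was 0.0511 to 0.0602. Of the 10 adipocyte markers, 9 had log2 fold differences below 0 for males minus females, with a median of −0.54 and 0 called in edgeR, 0 of them at an unadjusted p under 0.05. Their summed level ranged from 280.9 to 799 CPM (median 367) in males and from 229.6 to 947 CPM (median 421) in females, and the part of these cells in the value was not tested. The difference between the sexes in the response to exercise was called for 0 of the 9 genes, beside 0.0460% of tested genes, and had an unadjusted p under 0.05 for *Angptl4* alone, beside 3.28%, at 1.18 (SE 0.52, adjusted p = 1.00 from edgeR), which was 0.29 without mouse 1.

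For *Fabp3* the sexes differed by 0.22 (SE 0.13, adjusted p = 0.328 from edgeR), and without mouse 2 by 0.33 (adjusted p = 0.0493). Without mouse 20, which left mouse 1 as the only rested WT female, the *Fabp3* difference was 0.14. The 6 females numbered 1 to 6 had 993 ± 154 CPM (SD), close to the 965.5 ± 126 CPM (SD, n = 13) of the males, while the 6 females numbered 20 to 25 had 667 ± 122 CPM (SD). *Cd36* was at 1208 ± 203, 1092 ± 160 and 901 ± 96.9 CPM (SD) in the same 3 sets, which were not tested against each other. Of the 15 enzymes of mitochondrial beta-oxidation, 3 were called higher in males by edgeR, beside 5.36% of all tested genes, and the log2 fold differences of all 15 were above 0, with a median of 0.17. In the same comparison, 5 of 7 slow muscle markers were lower and 5 of 8 fast muscle markers higher in males in edgeR, beside 2.79% and 5.36% of all tested genes, and the part of fiber type in these values was not tested. The 15 enzymes were not split by the 3 sets of mouse numbers.

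*Cd36*, *Fabp3* and *Cpt1b*, which carry fatty acids from membrane to mitochondrion, varied together from mouse to mouse. Over the 25 mice, the log2 levels of *Fabp3* and *Cpt1b* had r = 0.873 and rho = 0.883, *Cd36* and *Fabp3* r = 0.817 and rho = 0.823, and *Cd36* and *Cpt1b* r = 0.806 and rho = 0.773. All 6 permutation p-values were 1e-05, the smallest that 100000 resamples can give, with adjusted p-values of 8e-05 over the 40 relations. Without the 2 mice farthest from the median of the first gene, r was 0.839, 0.796 and 0.741. Within the 13 males it was 0.826, 0.780 and 0.62, within females 1 to 6 it was 0.763, 0.581 and 0.813, and within females 20 to 25 it was 0.899, 0.971 and 0.814. *Lpl* followed *Cd36* with r = 0.715 and rho = 0.794 (permutation p = 1e-04 and 1e-05, adjusted p = 0.00067 and 8e-05), and 0.707, 0.638 and 0.517 in the same 3 sets.

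*Ucp2* ran the other way from *Lpl*, with r = −0.506 and rho = −0.396 over the 25 mice (permutation p = 0.0096 and 0.051, adjusted p = 0.030 and 0.10). With the group means taken out r was −0.805. The relation did not hold within all sets of mice, at −0.704 in the males, −0.645 in females 1 to 6 and 0.755 in females 20 to 25, and without mice 7 and 15 r was −0.313. With *Cd36*, *Fabp3* and *Cpt1b*, *Ucp2* had r of −0.499, −0.32 and −0.32 over the 25 mice (adjusted permutation p = 0.032, 0.22 and 0.22). These relations were likewise negative in the males and in females 1 to 6, and positive in females 20 to 25, at 0.311, 0.342 and 0.66. *Ucp2* was higher where the macrophage markers were higher (r = 0.484, rho = 0.518, permutation p = 0.014 and 0.0088, adjusted p = 0.037 and 0.032), at 0.644, 0.327 and 0.123 in the same 3 sets and at 0.327 without mice 7 and 19. With the fibroblast markers *Ucp2* had r = 0.444 and rho = 0.388 (permutation p = 0.026 and 0.057, adjusted p = 0.061 and 0.10), with 0.50, 0.532 and −0.0426 in the 3 sets and 0.421 without mice 7 and 19. With the group means taken out, r was 0.786 for the fibroblast and 0.683 for the macrophage markers. The neighbours *Ucp2* and *Ucp3* had r = 0.0435 and rho = −0.0162 (permutation p = 0.84 and 0.94, adjusted p = 0.90 and 0.96), with −0.351 to 0.261 in the 3 sets. *Ucp3* and *Plin2*, both known targets of PPAR receptors, had r = 0.601 and rho = 0.613 (permutation p = 0.0013 and 0.0014, adjusted p = 0.0067 and 0.0063), with 0.717, 0.298 and 0.722 in the 3 sets and 0.555 without mice 13 and 21.

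**Figure D5:**
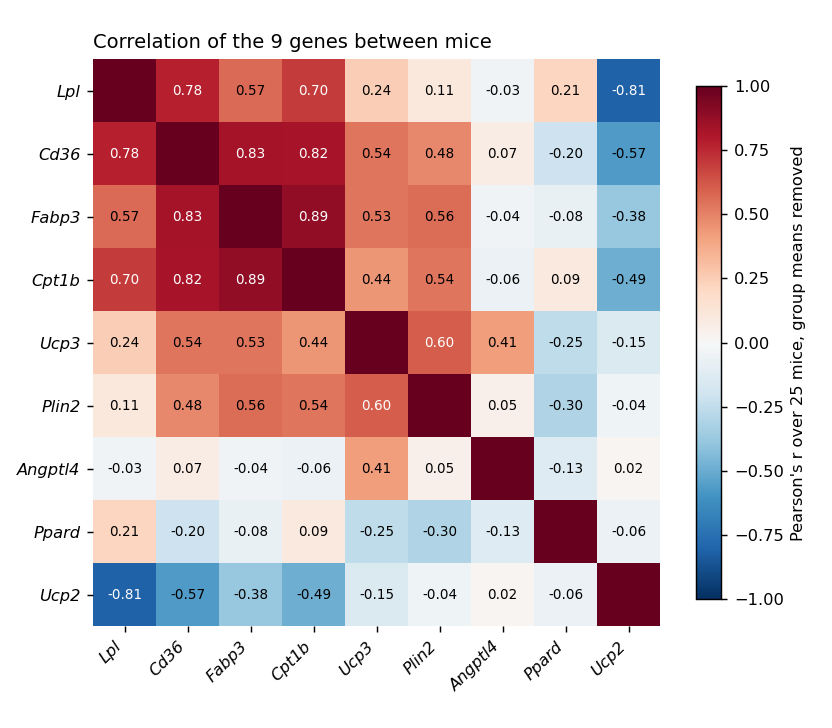
Pearson's r of log2 CPM between each pair of the 9 genes over 25 mice after removal of the 4 group means, on a color scale from −1 to 1 with the value in each cell. *Lpl*, *Cd36*, *Fabp3* and *Cpt1b* form a block with r of 0.57 to 0.89, and *Ucp2* is negative with all 4 of them.

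Of all tested genes, those most like 8 of the 9 over the 25 mice were found by Pearson's r of log2 CPM, given as a description. *Fabp3* was most like *Hadha* (r = 0.95), a subunit of the mitochondrial trifunctional protein of beta-oxidation, and *Slc25a20* (0.937), the carnitine carrier. *Cpt1b* was most like *Cpt2* (0.910), the next enzyme of the carnitine shuttle, and *Etfdh* (0.891), which passes electrons from fatty acid oxidation to the respiratory chain. *Cd36* was most like *Mtm1* (0.902) and *Scrn3* (0.896), and *Lpl* like *Asb11* (0.889). *Ucp3* was most like *Slc25a22* (0.898), a mitochondrial glutamate carrier, and *Pdk4* (0.797), the kinase that turns off pyruvate dehydrogenase. *Plin2* was most like *Clcn4* (0.732) and *Iba57* (0.719), and *Ppard* like *Prrc2a* (0.840) and *Gcn1l1* (0.820). *Ucp2* was most like *Layn* (0.851) and *Abcg1* (0.825), a cholesterol exporter of macrophages and other cells.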

How the data were processed

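RNA of the soleus of 25 mice was sequenced as 1 library per mouse. Per the labels, ribosomal RNA was depleted and stranded libraries were read as 75-bp paired ends, and the submitters' processing notes name FastQC 0.11.5, STAR 2.5.3a and featureCounts 1.5.3. The authors deposited raw counts per gene (mm10, GENCODE release 15), and 0 columns belonged to other samples. Whether counting used the strand is not given in the sources used here. Symbols were matched through GENCODE release 21 for 52403 of 52636 genes, with 233 unmatched. Groups, sex and mouse numbers came from the labels.

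Counts were filtered with filterByExpr (minimum count 10, minimum total 15; 16340 genes), normalized with TMM and tested with edgeR 4.0.16 (limma 3.58.1, R 4.3.3) by the quasi-likelihood F test, with 1 mean per group, no sex term and Benjamini-Hochberg adjustment over all tested genes (adjusted p under 0.05). Main effects weight both levels of the other factor equally. Intervals are 95%. CPM and RPKM use TMM library sizes and the exon lengths in the deposited table. Log2 CPM had a prior count of 2. The test between the sexes had 8 groups (17389 genes). The test was tried on simulated data. Permutation tests were two-sided. The p-values measure the spread between mice.

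The 9 genes, the lists and the tests were chosen with earlier results of these data known. Named beside them are *Dnmt3a*, per list up to 4 genes called for exercise and those called for genotype, and the 2 genes most alike each of the 9, some of which are not reported here. The relations with marker sums were added after the values were seen. Alternatives were DESeq2 1.42.0, other normalizations, no filter, no ribosomal RNA genes, a robust fit, sex or number blocks as terms, each sex alone and each mouse left out. Promoters are from RefSeq, and no protein sequences were used here.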

Additional observations from a re-analysis of the deposited data

Results flagged for a closer look

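Of 36 sets of a gene in a group, 3 held a value that stood apart from the rest of the group by more than Dixon's critical value for its size, which chance meets in about 1 in 20 groups. Mouse 1, a rested WT female, had 47.4 CPM of *Angptl4*, where the nearest mouse of its group had 8.11 CPM (a gap of 0.907 of the range). Mouse 7, a rested mD3AKO male, had 21.9 CPM of *Ucp2*, where the nearest had 14.5 CPM (0.699 of the range). The same mouse had 7.81 CPM of *Ppard*, where the nearest had 10.7 CPM (0.717 of the range). Mouse 7 also had the highest summed fibroblast, macrophage and blood markers of its group, and mouse 1 none of these. Mouse 1 had the highest summed slow muscle markers of its group (42140 CPM, group median 29480 CPM) and the highest brown adipocyte markers (8.80 CPM, group median 7.97 CPM).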

How the results depend on the processing

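Of 860 values recomputed under alternatives that kept every mouse or 1 sex, 787 kept their direction and side of the threshold, and so did 2322 of 2550 values with each mouse left out in turn. The *Ucp2* exercise effect stayed positive in all 35 alternatives, from 0.23 to 0.45 on the log2 scale, and was called in 31 of them. The number of the 9 genes called for exercise fell from 1 to 0 in males alone, in females alone and with library totals without TMM, and with 1 mouse left out it was 0 to 1. It was likewise 0 to 1 for exercise in mD3AKO mice (1 without mouse 7) and for sex. Over all tested genes, 1699 of 16340 were called for exercise with all mice. In males alone 966 of 16074 were, in females alone 512 of 16895, without TMM 927 of 16340 and without mouse 14 1577 of 16544. For exercise in mD3AKO mice 984 of 16340 were called, and 888 of 16250 without mouse 7. No paired analysis was possible because no mouse number occurs in more than 1 group. At similar median counts of 290 and 358, the SE of the exercise effect was 0.34 for *Angptl4*, 0.23 without mouse 1, and 0.079 for *Ppard*. Each value that turned its direction is given here as a log2 fold difference. None of them passed the test before or after, and the cause was not tested. DESeq2 gave a response in mD3AKO mice of −0.0022 for *Plin2*. Relative log expression factors gave a response in mD3AKO mice of −0.0016 for *Plin2*. Library totals without TMM gave a genotype main effect of −0.031 for *Cd36*, a response in mD3AKO mice of −0.035 for *Plin2* and a genotype difference at rest of −0.016 for *Cd36*, −0.032 for *Fabp3* and −0.0049 for *Ucp3*. Leaving out ribosomal RNA genes gave a genotype difference after exercise of 0.0024 for *Cpt1b* and 0.0018 for *Plin2*. No filter on low counts gave an interaction of −0.0069 for *Lpl* and a response in mD3AKO mice of −0.0064 for *Plin2*. Sex as a term gave an exercise main effect of 0.0053 for *Fabp3*, a genotype main effect of 0.0082 for *Angptl4* and a genotype difference at rest of 0.15 for *Angptl4*. Males alone gave an exercise main effect of 0.20 for *Angptl4* and 0.0067 for *Fabp3*, a genotype main effect of 0.78 for *Angptl4*, −0.019 for *Cd36* and 0.11 for *Ucp3* and an interaction of −0.16 for *Lpl* and 0.13 for *Ucp2*. The same setting gave a response in WT mice of 0.81 for *Angptl4* and 0.085 for *Cd36*, a response in mD3AKO mice of −0.0026 for *Lpl* and −0.0099 for *Ucp3* and a genotype difference at rest of 0.014 for *Lpl* and 1.40 for *Angptl4*. The same setting gave a genotype difference after exercise of 0.17 for *Angptl4*. Females alone gave an interaction of 0.38 for *Angptl4*, 0.19 for *Cd36*, 0.12 for *Fabp3*, 0.080 for *Cpt1b* and 0.21 for *Ucp3*, a response in WT mice of −0.037 for *Lpl*, −0.074 for *Fabp3* and −0.033 for *Cpt1b* and a response in mD3AKO mice of 0.048 for *Fabp3*, 0.047 for *Cpt1b* and −0.030 for *Plin2*. The same setting gave a genotype difference at rest of −0.082 for *Cd36*, −0.20 for *Fabp3*, −0.018 for *Cpt1b* and −0.48 for *Ucp3* and a genotype difference after exercise of 0.083 for *Lpl*, 0.11 for *Cd36* and 0.062 for *Cpt1b*. Blocks of mouse numbers (1 to 6, 7 to 19, 20 to 25) as a term gave a genotype main effect of 0.054 for *Angptl4*, an interaction of −0.034 for *Lpl* and a response in mD3AKO mice of −0.0026 for *Plin2*. The same setting gave a genotype difference at rest of 0.35 for *Angptl4*.

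With each mouse left out in turn, effects that changed sign at least once had these lowest and highest log2 values. The exercise main effect ran from −0.62 to 0.19 for *Angptl4*, −0.067 to 0.028 for *Fabp3* and −0.022 to 0.040 for *Cpt1b*. The genotype main effect ran from −0.064 to 0.017 for *Lpl*, −0.30 to 0.50 for *Angptl4* and −0.036 to 0.059 for *Cd36*. The interaction ran from −0.079 to 0.092 for *Lpl*, −1.55 to 0.053 for *Angptl4*, −0.14 to 0.051 for *Cd36*, −0.093 to 0.11 for *Ucp2* and −0.14 to 0.024 for *Ppard*. The response in WT mice ran from −0.65 to 0.96 for *Angptl4*, −0.11 to 0.035 for *Cd36* and −0.019 to 0.16 for *Fabp3*. The response in mD3AKO mice ran from −0.0040 to 0.16 for *Lpl*, −0.10 to 0.030 for *Cpt1b* and −0.065 to 0.034 for *Plin2*. The genotype difference at rest ran from −0.11 to 0.056 for *Lpl*, −0.33 to 1.28 for *Angptl4*, −0.062 to 0.13 for *Cd36*, −0.053 to 0.12 for *Fabp3* and −0.17 to 0.17 for *Ucp3*. The genotype difference after exercise ran from −0.057 to 0.023 for *Lpl*, −0.072 to 0.050 for *Cd36*, −0.045 to 0.040 for *Cpt1b*, −0.065 to 0.028 for *Plin2* and −0.00051 to 0.17 for *Ppard*. The sex difference ran from −0.092 to 0.017 for *Lpl*, −0.027 to 0.13 for *Cd36*, −0.054 to 0.086 for *Ucp2* and −0.16 to 0.0065 for *Ucp3*. The sex by exercise interaction ran from −0.092 to 0.11 for *Lpl*, −0.12 to 0.20 for *Cd36*, −0.21 to 0.16 for *Fabp3*, −0.14 to 0.085 for *Cpt1b*, −0.13 to 0.18 for *Ucp3*, −0.033 to 0.091 for *Plin2* and −0.040 to 0.17 for *Ppard*.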
